A study of Arabidopsis thaliana with 24 samples.

Results

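The genes described here are 41 Arabidopsis thaliana genes whose reads were nearly gone after 3 h of heat in dark-grown seedlings. They were chosen by measured values. Each gene had a mean of at least 4 CPM (a gene's count over the library total, times 1000000) at 22 °C in WT and in pif4, and at most 6 reads in all over the 6 WT and pif4 libraries at 37 °C. Of 32328 genes with values, 15064 reached 4 CPM in both 22 °C groups, and 41 of these also met the limit on reads. The heat effect in WT and pif4 is what chose the genes and is given as a description. The lines with added PIF4 took no part in the choice, and the tests compare their libraries. The spread in those tests was estimated over all 24 libraries, including those that chose the genes.

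All seedlings were of the Columbia background, germinated after 3 h of white light, grown for 3 days in darkness at 22 °C, and then moved to 37 °C or left at 22 °C for 3 h. RNA with a poly(A) tail was sequenced from whole seedlings, 3 libraries per group. The transgenic lines PIF4-L.1 and PIF4-L.2 carry PIF4pro:PIF4-3xFlag, a tagged PIF4 driven by its own promoter; whether they also lack the native gene is not stated in the labels. The mutant is pif4-101, and WT is the control. The count table has the codes H71 and H76 beside WT and pif4, and these were taken as the transgenic lines by elimination. Which of the codes is PIF4-L.1 is not given, so they keep their names. Nothing in the labels says that replicates came from separate cultures, so the p-values speak of the spread among these libraries, which may be technical.

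In most plant cells a heat shock reduces ordinary transcription and RNA stability while heat shock genes are induced. Growth and cell division are among the processes that pause. PIF4 belongs to the basic helix-loop-helix (bHLH) transcription factors. It promotes seedling elongation in the dark and in warmth and is one of the regulators that link temperature to growth. In bulk tissue, fewer cells of a type and less RNA per cell cannot be told apart.

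Library totals ran from 3176106 to 14791597 reads. The heat shock gene HSP101 held 4165 to 7484 CPM in the 37 °C libraries, against 7.41 to 31.2 CPM in the 22 °C libraries. One 22 °C library, H76 c, had 52.2 CPM of the small heat shock gene HSP18.2, against 0 to 3.43 CPM in the other 22 °C libraries; the count and median for H76 are also given without it. PIF4 itself held 68.3 to 71.1 CPM at 37 °C and 72.5 to 87.0 CPM at 22 °C in H71, and 34.1 to 42.9 and 41.8 to 58.4 CPM in H76. The libraries labelled pif4 held 15.1 to 15.7 CPM at 37 °C and 16.7 to 35.7 CPM at 22 °C, against 15.5 to 24.4 and 10.5 to 19.1 CPM in WT, so PIF4 reads do not tell the mutant from WT here.

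The 41 genes are mostly protein coding (39 genes), with 1 microRNA gene and 1 other non-coding RNA gene. By annotation, 8 belong to the cell cycle, DNA replication and chromatin, 6 to growth and the cell wall, 5 to receptors, defence and secretion, 9 to enzymes of metabolism, 2 to transporters, and 6 to gene regulation and RNA, while 5 have no assigned function. They lie on all 5 nuclear chromosomes, 14 of them on chromosome 5. Only RPA70D and EXO70E2 are direct neighbours of each other; they point away from each other and their annotated starts are 888 bases apart.

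The sequences below are shown because RPA70D, PRE1 and AT2G44230 were the members with the highest levels at 22 °C in the PIF4-L libraries, and their upstream windows overlap no other gene. Each is the 250 bases before the annotated start, on the gene's strand, read from RefSeq's TAIR10.1 assembly. The counts were made on TAIR10, so no coordinates are given. Capitals mark a motif found by search on both strands.

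RPA70D (chromosome 5, minus strand): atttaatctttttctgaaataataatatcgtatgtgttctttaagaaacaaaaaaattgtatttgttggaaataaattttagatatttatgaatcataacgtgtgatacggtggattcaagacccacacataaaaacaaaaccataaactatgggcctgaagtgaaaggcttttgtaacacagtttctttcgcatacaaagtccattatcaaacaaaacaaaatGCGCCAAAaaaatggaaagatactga

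PRE1 (chromosome 5, plus strand): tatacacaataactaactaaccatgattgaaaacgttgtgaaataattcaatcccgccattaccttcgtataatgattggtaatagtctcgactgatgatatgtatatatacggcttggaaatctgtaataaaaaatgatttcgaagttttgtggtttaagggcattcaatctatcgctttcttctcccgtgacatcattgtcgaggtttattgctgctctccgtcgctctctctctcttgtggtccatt

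AT2G44230 (chromosome 2, plus strand): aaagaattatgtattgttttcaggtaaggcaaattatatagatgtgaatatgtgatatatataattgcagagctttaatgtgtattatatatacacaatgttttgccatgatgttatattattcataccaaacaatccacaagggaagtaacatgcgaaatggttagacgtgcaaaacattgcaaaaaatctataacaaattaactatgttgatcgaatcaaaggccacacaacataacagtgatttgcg

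The capitals in RPA70D are the reverse strand of TTTGGCGC, a site type of E2F factors, which control genes of DNA replication; the match starts 26 bases before the annotated start. The search covered TTTGGCGC and TTTCCCGC as E2F sites, the G-box CACGTG and the related CACATG, the heat shock element core GAANNTTC, the mitotic core AACGG and TATAAA. An E2F site stood in 3 of 41 member windows (7.32%), those of RPA70D, ATIM and AT4G28310, against 141 of 14957 windows (0.943%) of genes at 4 CPM or more in WT and pif4 at 22 °C. All 3 are in the group of the cell cycle, DNA replication and chromatin, and AT4G28310 holds both E2F motifs. The windows of the other genes of this group (ABAP1, DEL1, CYCB2;4, AT4G26660 and SUVH5) held no E2F site. The windows of ATIM and AT4G28310 overlap a neighbouring gene and are not printed. The G-box stood in 2 member windows (4.88%, against 7.58% of the larger set), the heat shock element core in 3 (7.32% against 8.99%), CACATG in 5 (12.2% against 11.2%), AACGG in 9 (22.0% against 22.0%) and TATAAA in 22 (53.7% against 46.0%). Matches are descriptions of these letters and were not tested.

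MIR822 is the microRNA gene of the set. Its mature sequences are shown with bases 2 to 8 in capitals, read from the RefSeq annotation on the minus strand of chromosome 5.

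miR822-5p: uGCGGGAAgcauuugcacaug

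miR822-3p: uGUGCAAAugcuuucuacagg

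The bases in capitals differ between the arms. The libraries were made from RNA with a poly(A) tail, so the reads come from the primary transcript and do not measure the mature arms.

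At 22 °C the 41 genes were read at a low to moderate level. Their mean levels had a median of 6.04 CPM in H71 (range 2.88 to 21.3), 5.21 CPM in H76 (2.45 to 19.3), 5.83 CPM in pif4 (4.05 to 16.0) and 5.84 CPM in WT (4.15 to 18.9), and 28 of 41 reached 4 CPM in both transgenic codes. At 22 °C no member differed between H71 and H76 by edgeR's quasi-likelihood test at adjusted p under 0.05, with 1 member at an unadjusted p under 0.05 and no member called by DESeq2; over all genes tested 15 (0.0776%) were called. That member was AT3G01260, a galactose mutarotase-like gene, with 6.86, 9.82 and 5.34 CPM in H71 against 2.67, 2.93 and 2.89 CPM in H76 at 22 °C, a difference of 1.35 ± 0.60 (log2 ± SE, n = 3 each, adjusted p = 1.0). Here and below, SE is the size of the fitted change over the square root of the edgeR F statistic. It is approximate and was not estimated separately.

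**Figure D1:**
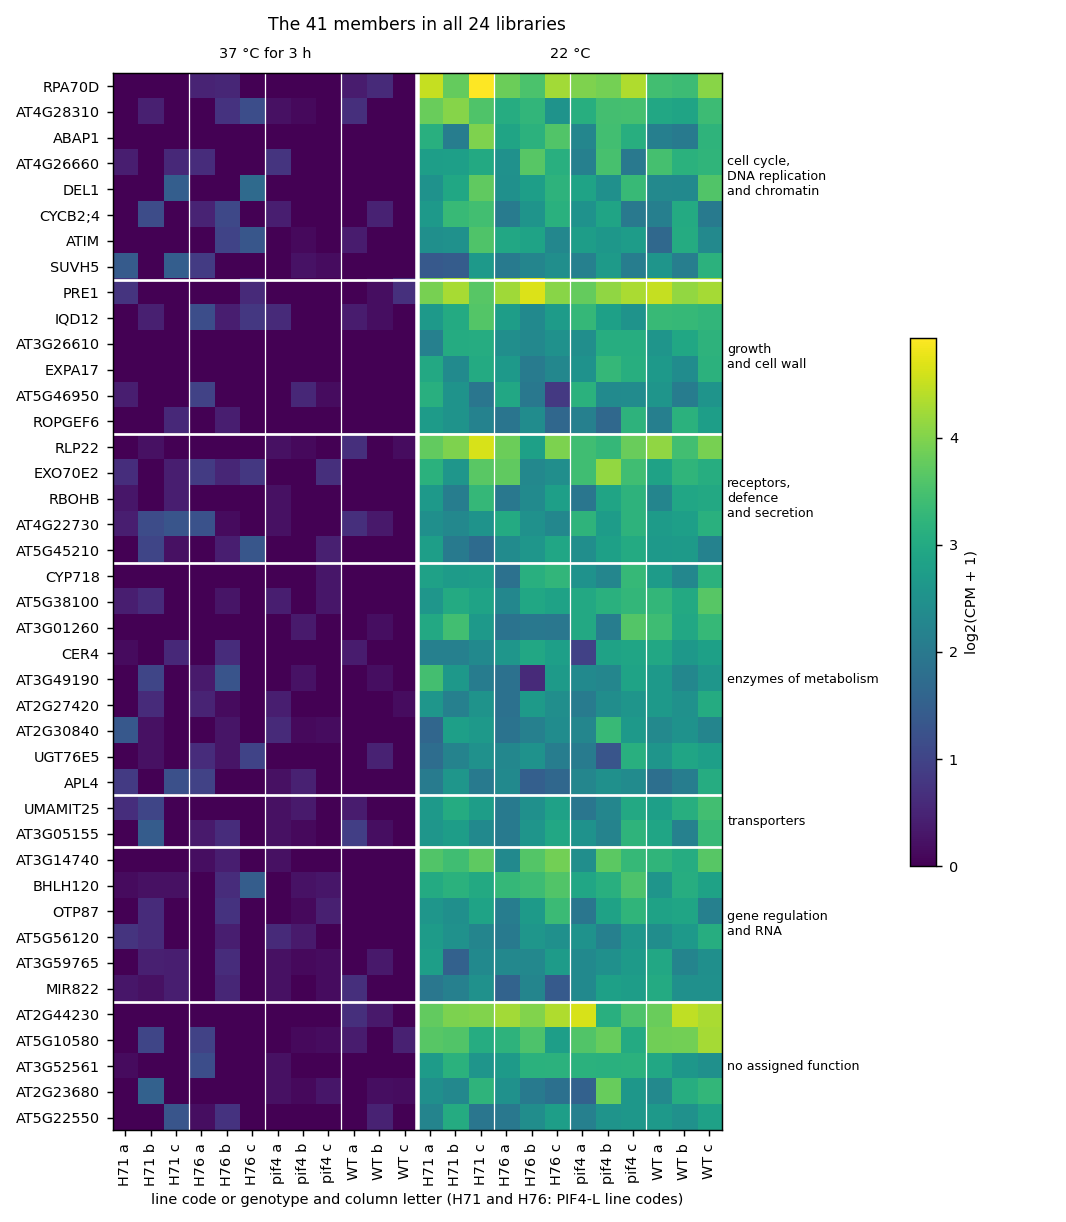
Level of each of the 41 members (rows, grouped by role) in each of the 24 libraries (columns), as log2(CPM + 1), with 37 °C on the left and 22 °C on the right. The left block is near 0 throughout with scattered low values in H71 and H76, and the right block is between about 2 and 5 for most members in all 4 codes.

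After heat, the members summed to 8.62, 14.1 and 10.9 CPM in the H71 libraries and 11.5, 11.4 and 11.2 CPM in the H76 libraries, against 272, 275 and 323 CPM in H71 and 231, 255 and 277 CPM in H76 at 22 °C. The sums in the 37 °C libraries do not overlap those at 22 °C. In the libraries that chose the members, the sums were 2.94 to 5.22 CPM in pif4 and 1.33 to 5.65 CPM in WT at 37 °C, against 247 to 317 CPM in pif4 and 276 to 338 CPM in WT at 22 °C; the limit on reads fixes how low these could be.

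**Figure D2:**
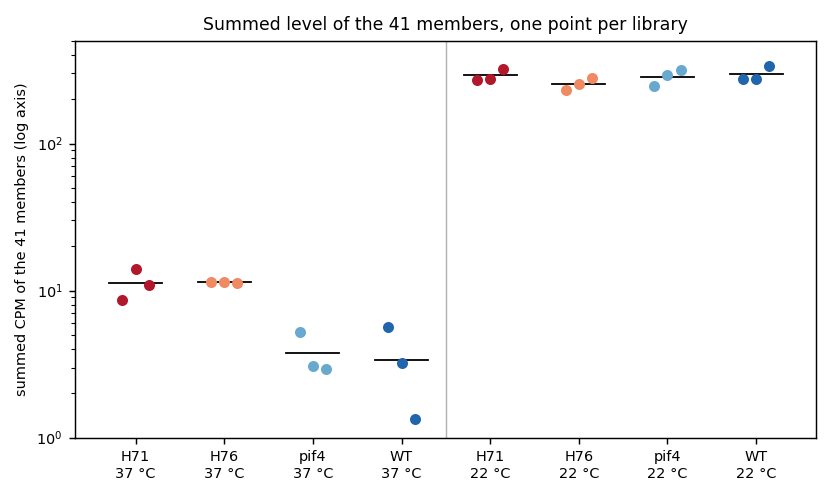
Summed CPM of the 41 members per library on a log axis; points are libraries and bars are group means. The 6 PIF4-L libraries at 37 °C sit between 8.62 and 14.1 CPM, and the 6 PIF4-L libraries at 22 °C between 231 and 323 CPM.

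Gene by gene, 37 of 41 members were called lower at 37 °C in H71 and 38 of 41 in H76, 35 of them (85.4%) in both (edgeR quasi-likelihood test over all 19329 genes kept, Benjamini-Hochberg adjusted p under 0.05). No member was called higher, and every fitted change lay below 0. Over all genes tested, 24.3% were called lower in H71, 24.1% in H76 and 17.6% in both, and 24.2% were called higher in H71 and 24.2% in H76. Among the 15064 genes at 4 CPM or more in WT and pif4 at 22 °C, 20.5% were called lower in both. All 41 members were in the fit. Its filter on low counts and its spread used all 24 libraries, including the WT and pif4 libraries that the rule had used. With the PIF4-L libraries alone, 32 members were called lower in H71 and 37 in H76, against 4397 and 4366 of 18476 genes. In the fit over all 24 libraries, the median change of the members was -3.84 (log2) in H71 and -3.50 in H76, against -0.14 and -0.14 over all genes. With 3 reads per group in place of 0 as a floor, on the TMM-scaled library sizes explained below, the medians were -3.84 and -3.46. Without the 37 °C library H71 b the median in H71 was -5.33, and without the H76 libraries a or b at 37 °C the median in H76 was -4.55 or -4.78. Without the 22 °C library H76 c the count in H76 was 35 and the median -3.44.

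**Figure D3:**
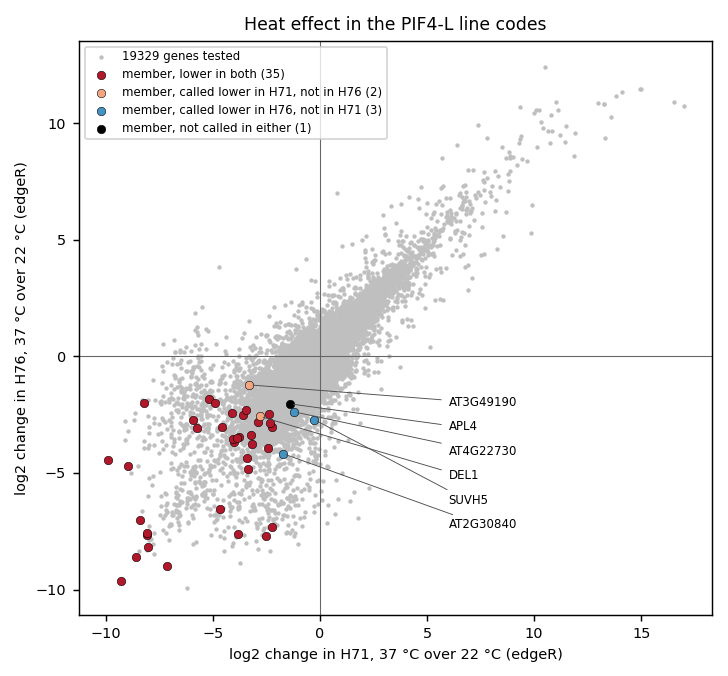
Fitted log2 change at 37 °C over 22 °C in H71 (x axis) and in H76 (y axis) for the 19329 genes tested (grey) and the 41 members (coloured by call). All members lie below 0 on both axes, and the 6 members not called in 1 or both codes are named; positions of members at 0 reads depend on the fit's prior count.

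Of the 35 members called in both codes, 23 kept both calls when each of the 12 PIF4-L libraries was left out in turn. The other 12 lost a call in at least 1 of these fits; they are named with their adjusted p below. Fitted changes are relative to library sizes scaled by the trimmed mean of M-values (TMM), with factors between 0.664 and 0.792 in heated libraries and between 1.27 and 1.5 in the others. With plain library totals the median of all genes moved to -1.13 in H71 and -1.02 in H76, genes called lower and higher numbered 11719 and 1742 in H71 and 10932 and 1831 in H76, and 40 of 41 members were called lower in H71 and 41 of 41 in H76.

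The heat effect of no member differed between H71 and H76 by the test of the difference itself (edgeR, adjusted p from 0.629), as for all genes tested (0.0%). There were 7 members at an unadjusted p under 0.05, a number not set beside that over all genes, and DESeq2 also called no member. The fitted differences, H71 minus H76, ran from -6.23 ± 1.91 (ATIM) to 5.2 ± 1.88 (UMAMIT25, log2 ± SE). At 37 °C ATIM had 0 reads in H71 and UMAMIT25 had 0 in H76, so the size of these 2 differences depends on the fit's prior count. With so few reads at 37 °C, even fitted differences of this size were not called. The lack of calls therefore does not show that the heat effects were equal. For the 6 members at 0 reads in both codes at 37 °C this test carries no information.

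The PIF4-L libraries at 37 °C held 460 reads of the 41 members among 41387713 reads in all, 226 in H71 and 234 in H76. The WT and pif4 libraries at 37 °C held 144 of 44552806 reads, a number capped by the rule. A member had a median of 10 reads over the 6 PIF4-L libraries, and 4 reads over the 6 WT and pif4 libraries. In the PIF4-L libraries 10 members stayed at 6 reads or fewer and 31 had more, up to 32. The members at 0 reads in all 6 were AT2G44230, ABAP1, CYP718, AT3G26610, AT3G01260 and EXPA17, and of these ABAP1, AT3G26610 and EXPA17 were also at 0 in WT and pif4. When the same limits were applied to H71 and H76 in place of WT and pif4, 61 genes met them, of which 8 were members (19.5% of the members, 13.1% of the 61).

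**Figure D4:**
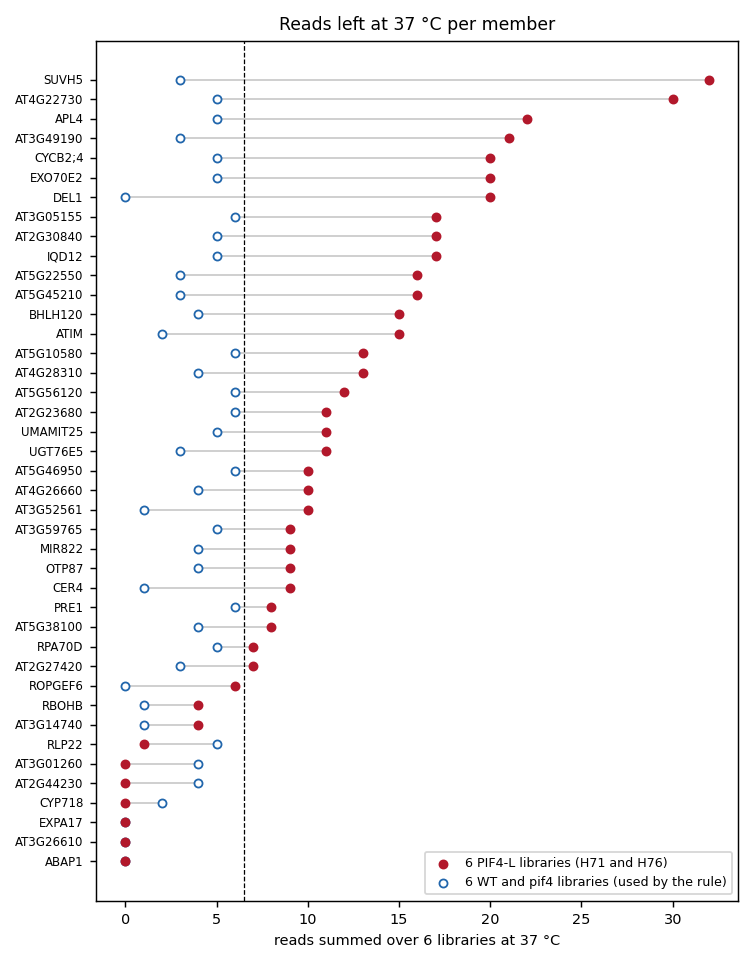
Reads of each member summed over the 6 PIF4-L libraries at 37 °C (filled) and over the 6 WT and pif4 libraries at 37 °C (open), with the rule's limit dashed. Open points lie left of the line by the choice of members, and 31 of 41 filled points lie right of it.

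The reads left at 37 °C were unevenly spread. Of 246 values (41 members in 6 PIF4-L libraries), 147 were 0, 56 were 1 to 4 reads and 43 were 5 or more, and those 43 held 329 of the 460 reads. No single value passed 15 reads. At 22 °C the same members had 5 to 244 reads per PIF4-L library and none was at 0. Zeros were more frequent at 37 °C than counting error gives: over the whole table, where the remaining libraries of a code gave an expected 5 to 10 reads for a gene, 9.93 to 19.1% of the genes were at 0 in a PIF4-L library, against 0.116 to 0.18% under a Poisson distribution. Bounds and intervals below cover counting error only.

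Among the genes of the cell cycle, DNA replication and chromatin, 7 of 8 were called lower in H71 and 7 of 8 in H76. RPA70D (AT5G61000) encodes a large subunit of replication protein A, which binds single-stranded DNA. It had 0, 0 and 0 CPM in H71 and 0.411, 0.436 and 0 CPM in H76 at 37 °C, against 21.6, 12.6 and 29.6 CPM in H71 and 13.3, 10.6 and 18.1 CPM in H76 at 22 °C. No 37 °C value came near the 22 °C values. The reads were at least 72.9-fold lower in H71 (3 reads over the group as the floor, adjusted p = 3.2e-09), and the fitted change in H76 was -4.46 ± 0.60 (log2 ± SE, adjusted p = 6.5e-07, edgeR, n = 3 each).

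ABAP1 (AT5G13060), an armadillo and BTB protein that restrains DNA replication licensing, had 0 reads in all 6 PIF4-L libraries at 37 °C. At 22 °C it had 7.65, 3.27 and 14.8 CPM in H71 and 6.39, 7.98 and 11.1 CPM in H76. It was at least 29.7-fold lower in H71 (adjusted p = 7.9e-06, edgeR) and at least 31.3-fold lower in H76 (adjusted p = 7.2e-06). DEL1 (AT3G48160), an atypical E2F factor that delays the switch from division to endoreduplication, had all its 37 °C reads in library c of each code. It held 0, 0 and 1.79 CPM in H71 and 0, 0 and 2.24 CPM in H76 at 37 °C, against 4.75, 6.72 and 12.3 CPM in H71 and 4.53, 5.75 and 8.18 CPM in H76 at 22 °C. Its change was -2.82 ± 1.06 in H71 (adjusted p = 0.032) and -2.57 ± 1.09 in H76 (adjusted p = 0.056, edgeR), and the second was not called. DESeq2 did not call it in H71 (adjusted p = 0.112). The call in H71 was lost without the 22 °C library c or the 37 °C library a or b (adjusted p = 0.0983 to 0.109), and the change in H76 was called without the 37 °C library H76 c (adjusted p = 0.000609), without any 1 of the 37 °C libraries of H71 (adjusted p = 0.0238 to 0.0451) and with library totals (adjusted p = 0.00828). DEL1 overlaps ALDH10A9 on the other strand, which held 3186 reads at 37 °C and 4049 at 22 °C in the PIF4-L libraries; whether the counting used strand is not given, so reads of such pairs cannot be told apart.

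ATIM (AT5G52910) is the relative of TIMELESS, which protects replication forks in animals and yeast. It had 0, 0 and 0 CPM in H71 and 0, 0.98 and 1.49 CPM in H76 at 37 °C, against 4.48, 4.65 and 10.9 CPM in H71 and 6.74, 6.26 and 3.90 CPM in H76 at 22 °C. It was at least 23.8-fold lower in H71 (adjusted p = 2.4e-05, edgeR) and changed by -2.0 ± 0.76 in H76 (adjusted p = 0.031), a call lost without the 22 °C library a or b or the 37 °C library a or b of H76 (adjusted p = 0.0557 to 0.137). CYCB2;4 (AT1G76310), a B-type cyclin of the entry into mitosis, had 7 reads in H71 and 13 in H76 at 37 °C, against 127 and 137 at 22 °C. Its changes were -3.45 ± 0.95 (adjusted p = 0.0033) and -2.29 ± 0.88 (adjusted p = 0.031, edgeR), and the call in H76 was lost without the 22 °C library c or the 37 °C library a or c (adjusted p = 0.0912 to 0.102). AT4G28310, annotated as a microtubule-associated protein, had 2 reads in H71 and 11 in H76 at 37 °C, against 200 and 185 at 22 °C, and AT4G26660, annotated as kinesin-like, had 6 and 4 reads against 95 and 216. Both were called in both codes.

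SUVH5 (AT2G35160), a histone H3 lysine 9 methyltransferase of gene silencing, kept the most reads of the set, 32 over the PIF4-L libraries at 37 °C. It had 1.68, 0 and 1.79 CPM in H71 and 0.822, 0 and 0 CPM in H76 at 37 °C, against 1.58, 1.72 and 5.34 CPM in H71 and 3.02, 3.74 and 4.40 CPM in H76 at 22 °C. The H71 values overlap between temperatures. The change in H71 was -0.27 ± 0.85 (adjusted p = 0.82, edgeR) and took the opposite sign without the 22 °C library c (0.48) or the 37 °C library b (0.28). In H76 it was -2.71 ± 0.99 (adjusted p = 0.024), a call lost without the 37 °C library b or c (adjusted p = 0.118 and 0.0736). The heat effects of H71 and H76 differed by 2.45 ± 1.31 (adjusted p = 0.88), which does not pass the test.

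All 6 genes of growth and the cell wall were called lower in both codes. PRE1 (AT5G39860), a small bHLH protein without a DNA-binding basic region that promotes elongation by binding growth inhibitors, had 0.671, 0 and 0 CPM in H71 and 0, 0 and 0.498 CPM in H76 at 37 °C. At 22 °C it had 14.2, 18.6 and 11.6 CPM in H71 and 17.7, 24.6 and 15.7 CPM in H76. One library of each code kept reads, far below every 22 °C value. The change was -4.68 ± 0.68 in H71 (adjusted p = 1.2e-06, edgeR), and in H76 the reads were 110-fold lower (95% counting interval 30.3 to 911, adjusted p = 6.0e-08).

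EXPA17 (AT4G01630), an expansin that loosens cell walls, and AT3G26610, a polygalacturonase known as PGX1 that acts on pectin during cell expansion, had 0 reads at 37 °C in all 12 libraries of the series that were heated. EXPA17 held 6.86, 4.13 and 7.12 CPM in H71 and 5.35, 3.13 and 3.90 CPM in H76 at 22 °C, and AT3G26610 held 3.43, 7.23 and 7.30 CPM in H71 and 4.42, 3.94 and 4.65 CPM in H76. EXPA17 was at least 20.4-fold lower in H71 and at least 15.2-fold lower in H76, and AT3G26610 at least 21.8-fold and at least 16.1-fold lower (adjusted p from 5.8e-06 to 2.6e-05, edgeR). ROPGEF6 (AT3G55660), an exchange factor that activates ROP GTPases of polar growth, had 3 reads in H71 and 3 in H76 at 37 °C against 69 and 83 at 22 °C, ratios of 15.7 (95% counting interval 5.14 to 77.8) and 11.7 (3.86 to 57.8).

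IQD12 (AT5G03960), a calmodulin-binding protein of the IQ67-domain family, had 2 reads in H71 and 15 in H76 at 37 °C against 124 and 133 at 22 °C. Its call in H76 (-1.84 ± 0.70, adjusted p = 0.030, edgeR) was lost without the 22 °C library a or c or the 37 °C library b or c (adjusted p = 0.0568 to 0.15). AT5G46950, an inhibitor-like protein of the invertase and pectin methylesterase inhibitor family, had 3 reads in H71 and 7 in H76 at 37 °C against 73 and 93 at 22 °C. Its 37 °C and 22 °C values overlap over the 6 PIF4-L libraries, since the 22 °C library H76 c held 0.755 CPM. The call in H76 (-2.43 ± 1.02, adjusted p = 0.0496) was lost in 7 of the 12 fits that leave out 1 library (adjusted p = 0.051 to 0.275, the highest without the 22 °C library H76 a).

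Of the genes for receptors, defence and secretion, 4 of 5 were called lower in H71 and 5 of 5 in H76. RLP22 (AT2G32660), a receptor-like protein with leucine-rich repeats and no kinase domain, had 0, 0.172 and 0 CPM in H71 and 0, 0 and 0 CPM in H76 at 37 °C. At 22 °C it had 12.4, 14.8 and 23.7 CPM in H71 and 13.1, 5.96 and 14.5 CPM in H76. A single read was left, and the groups stand far apart. In H71 the ratio was 181-fold lower (95% counting interval 32.2 to 7184, adjusted p = 2.9e-08, edgeR), and in H76 the reads were at least 40.4-fold lower (adjusted p = 6.0e-08). RBOHB (AT1G09090), an NADPH oxidase that makes reactive oxygen at the plasma membrane, had 4 reads in H71 and 0 in H76 at 37 °C against 88 and 113 at 22 °C, and was called in both.

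EXO70E2 (AT5G61010), a subunit of the exocyst that tethers secretory vesicles, had 7 reads in H71 and 13 in H76 at 37 °C against 125 and 180 at 22 °C. Its call in H76 (-2.51 ± 0.72, adjusted p = 0.0049, edgeR) was lost without the 22 °C library H76 a (adjusted p = 0.0602). It overlaps ECT3 on the other strand, with 1480 reads at 37 °C and 4653 at 22 °C. AT5G45210, a disease resistance protein of the TIR-NBS-LRR class, had 7 reads in H71 and 9 in H76 at 37 °C against 53 and 138 at 22 °C. Its calls (-2.36 ± 0.95, adjusted p = 0.041, and -2.48 ± 0.91, adjusted p = 0.026) were lost without 4 of the H71 libraries (22 °C a or b, 37 °C a or c) in H71 and 3 of the H76 libraries (22 °C c, 37 °C a or b) in H76 (adjusted p = 0.0547 to 0.164).

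AT4G22730, a leucine-rich repeat kinase, kept reads in 5 of 6 PIF4-L libraries at 37 °C. It had 0.336, 1.20 and 1.47 CPM in H71 and 1.37, 0.109 and 0 CPM in H76 at 37 °C, against 4.48, 3.96 and 4.81 CPM in H71 and 7.09, 4.64 and 3.90 CPM in H76 at 22 °C. The temperatures do not overlap, yet the change of -1.21 ± 0.73 in H71 was not called (adjusted p = 0.17, edgeR); with library totals it was (adjusted p = 0.00878). In H76 it was -2.38 ± 0.77 (adjusted p = 0.011), a call lost without the 37 °C library H76 b (adjusted p = 0.0778). AT4G22730 overlaps AT4G22740, a glycine-rich protein gene on the other strand, which held 4957 reads at 37 °C and 971 at 22 °C in the PIF4-L libraries; its part in the reads left was not tested.

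Among the enzymes of metabolism, 7 of 9 were called lower in H71 and 7 of 9 in H76. CYP718 (AT2G42850), a cytochrome P450, and AT3G01260 had 0 reads in the PIF4-L libraries at 37 °C. CYP718 held 87 reads in H71 and 166 in H76 at 22 °C, and was at least 19.8-fold and at least 23.4-fold lower. AT3G01260 held 113 and 75 reads and was at least 25.7-fold lower in H71 and at least 10.6-fold lower in H76, the smallest bound of the set.

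Wax and lipid enzymes of the set were CER4 (AT4G33790), the fatty acyl-CoA reductase that makes the primary alcohols of cuticular wax, and AT3G49190, a WSD1-like wax ester synthase. CER4 had 4 reads in H71 and 5 in H76 at 37 °C against 56 and 157 at 22 °C and was called in both. AT3G49190 had 0, 1.03 and 0 CPM in H71 and 0.274, 1.42 and 0 CPM in H76 at 37 °C, against 10.02, 5.17 and 3.20 CPM in H71 and 2.56, 0.505 and 5.41 CPM in H76 at 22 °C. Its library b was high at 37 °C and low at 22 °C in H76, where the temperatures overlap. The change was -3.30 ± 1.03 in H71 (adjusted p = 0.0093, edgeR), a call lost without the 37 °C library H71 a (adjusted p = 0.0521), and -1.22 ± 0.92 in H76 (adjusted p = 0.28), which was called with library totals (adjusted p = 0.048).

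APL4 (AT2G21590), a large subunit of ADP-glucose pyrophosphorylase in starch synthesis, was the member that edgeR called in neither code. It had 0.783, 0 and 1.30 CPM in H71 and 0.959, 0 and 0 CPM in H76 at 37 °C, against 3.17, 4.99 and 3.03 CPM in H71 and 4.07, 1.82 and 2.14 CPM in H76 at 22 °C. Every 37 °C value lies below every 22 °C value. The changes were -1.40 ± 0.90 (adjusted p = 0.20) and -2.04 ± 0.99 (adjusted p = 0.090, edgeR), and without the 37 °C library H76 a, the one that held reads, the H76 change was called (adjusted p = 0.00408). DESeq2 called APL4 lower in H76 (adjusted p = 0.0401), and with library totals edgeR called it in H71 (adjusted p = 0.0206) and in H76 (adjusted p = 0.0107). AT2G30840, a 2-oxoglutarate-dependent oxygenase, had 1.57, 0.172 and 0 CPM in H71 and 0, 0.218 and 0 CPM in H76 at 37 °C, against 2.11, 5.86 and 5.34 CPM in H71 and 2.67, 3.43 and 4.28 CPM in H76 at 22 °C. Its change was -1.74 ± 0.81 in H71 (adjusted p = 0.077), and it was called with DESeq2 on all libraries (adjusted p = 0.0342), with library totals (adjusted p = 0.0036) and without the 37 °C library H71 a (adjusted p = 0.0021). In H76 its reads were 19.2-fold lower (95% counting interval 5.17 to 161, adjusted p = 0.0021).

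UGT76E5 (AT3G46720), a glycosyltransferase of a gene family with close copies, had 1 read in H71 and 10 in H76 at 37 °C against 56 and 106 at 22 °C. Its call in H76 (-1.99 ± 0.80, adjusted p = 0.040, edgeR) was lost without the 22 °C library a or b or the 37 °C library a or b of H76 (adjusted p = 0.0672 to 0.172). How the counting treated reads shared by close copies is not given, so its level is uncertain. AT5G38100, an S-adenosylmethionine-dependent methyltransferase, had 6 and 2 reads at 37 °C against 95 and 148 at 22 °C. AT2G27420, a cysteine proteinase, had 3 and 4 reads against 66 and 111. Both were called in both codes.

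The transporters were both called lower in both codes. UMAMIT25 (AT1G09380), of a family of amino acid exporters, had 11 reads in H71 and 0 in H76 at 37 °C against 94 and 119 at 22 °C. The heat effects of the codes differed at an unadjusted p of 0.0097 and at no adjusted p under 0.05 (adjusted p = 0.72, edgeR). AT3G05155, of the major facilitator superfamily, had 10 and 7 reads at 37 °C against 75 and 129 at 22 °C. Its call in H71 (-2.24 ± 0.91, adjusted p = 0.041) was lost without the 22 °C library a or b or the 37 °C library a or c of H71 (adjusted p = 0.0712 to 0.166).

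All 6 genes of gene regulation and RNA were called lower in both codes. AT3G14740, a zinc finger protein of the RING, FYVE and PHD superfamily, had 0, 0 and 0 CPM in H71 and 0.137, 0.327 and 0 CPM in H76 at 37 °C, against 11.1, 9.65 and 12.1 CPM in H71 and 4.07, 11.3 and 13.7 CPM in H76 at 22 °C. It was at least 37.7-fold lower in H71 (adjusted p = 2.8e-07) and changed by -4.71 ± 0.74 in H76 (adjusted p = 6.6e-06, edgeR). BHLH120 (AT5G51790), a basic helix-loop-helix protein, had 1 read in each H71 library and 0, 5 and 7 reads in H76 at 37 °C, against 112 reads over H71 and 257 over H76 at 22 °C.

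MIR822 (AT5G03552), whose arms are printed above, had 0.224, 0.172 and 0.326 CPM in H71 and 0, 0.436 and 0 CPM in H76 at 37 °C, against 2.90, 3.44 and 4.63 CPM in H71 and 1.98, 3.74 and 1.64 CPM in H76 at 22 °C. The change was -2.88 ± 0.90 in H71 (adjusted p = 0.0091) and -2.82 ± 0.93 in H76 (adjusted p = 0.013, edgeR), the second lost without the 22 °C library H76 b or the 37 °C library H76 a (adjusted p = 0.0578 and 0.0661). OTP87 (AT1G74600), a pentatricopeptide repeat protein of mitochondrial RNA editing, had 3 and 6 reads at 37 °C against 80 and 156 at 22 °C. The non-coding RNA gene AT3G59765 had 4 and 5 reads against 56 and 117. AT5G56120, annotated as an RNA polymerase II elongation factor, had 9 and 3 reads against 69 and 112, and its call in H71 (-2.44 ± 0.81, adjusted p = 0.014) was lost without the 37 °C library H71 c (adjusted p = 0.0605).

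The 5 genes with no assigned function were all called lower in both codes. AT2G44230, with the DUF946 domain, had 0 reads in all 6 PIF4-L libraries at 37 °C, against 12.4, 14.6 and 15 CPM in H71 and 18.0, 15 and 19.2 CPM in H76 at 22 °C. It was at least 49.1-fold lower in H71 (adjusted p = 7.2e-08, edgeR) and at least 64.3-fold lower in H76 (adjusted p = 2.4e-08). AT5G10580 (DUF599) had 6 and 7 reads at 37 °C against 149 and 223 at 22 °C, and AT3G52561 had 1 and 9 against 95 and 189. AT2G23680, of the cold acclimation WCOR413 family, had 11 reads in H71, all in library b, and 0 in H76 at 37 °C, against 86 and 90 at 22 °C; its call in H71 (-2.26 ± 0.87, adjusted p = 0.033) was lost without the 22 °C library c or the 37 °C library a or c of H71 (adjusted p = 0.113 to 0.142). AT5G22550 (DUF247) had 9 and 7 reads against 72 and 114, and its calls were lost without the H71 libraries 22 °C b, 37 °C a or 37 °C b in H71 (adjusted p = 0.128 to 0.15) and without the 37 °C library H76 a in H76 (adjusted p = 0.0589).

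The genes next to the limits of the rule are given as a description. At the limit of 6 reads, where 6 members stood, AT2G23680, AT3G05155, AT5G10580, PRE1 and AT5G46950 were inside with 6 reads in the 6 WT and pif4 libraries at 37 °C, and AT2G47540, AT3G12977, AT3G45930, AT3G56870 and AT4G13210 were outside with 7. Over the 6 PIF4-L libraries at 37 °C, the inside genes had 8 to 17 reads, and the outside genes had 31, 12, 0, 9 and 22. At the limit of 4 CPM, SUVH5 with 4.05 CPM in pif4 was nearest inside, followed by UGT76E5 (4.09 CPM in pif4), AT2G30840 (4.15 CPM in WT), AT2G27420 (4.15 CPM in pif4) and APL4 (4.18 CPM in pif4). Just outside were AT4G14840, whose WT mean of 4.0 CPM after rounding lay below the limit, AT3G50120 (3.99 CPM in pif4), AT4G05170 (3.97), AT5G53320 (3.96) and AT1G68940 (3.92).

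The gene structure of the members was set beside that of the larger set. Their spliced length had a median of 1848 bases, against 1789 over the genes at 4 CPM or more in WT and pif4 at 22 °C, and their exon number a median of 3 against 5. Another gene overlapped 14 of 41 members (34.1%), against 32.1% of the larger set, and in 13 (31.7%) it lay on the other strand, against 28.0%. Beside the pairs named above, RBOHB overlaps RPT5B, AT5G56120 overlaps TEX1, AT3G49190 overlaps RID3 and AT4G28310 overlaps MAN5, all on the other strand. These are descriptions with no test.

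Families and processes around the members were read from lists, in the same fits. Over all genes tested, 24.3% were called lower in H71 and 24.1% in H76, and 24.2% higher in each. With library totals, 11719 of 19329 genes were called lower in H71 and 10932 in H76. Of 30 genes of mitotic cyclins, kinases and cytokinesis, 29 were in the fit, and 15 were called lower in H71 and 16 in H76, with medians of -2.08 and -1.32 against -0.14 over all genes. None was called higher by edgeR or DESeq2, with 0 genes higher in H71 and 1 in H76 at an unadjusted p under 0.05. With library totals 25 and 19 were called lower. CYCB1;2, a mitotic cyclin, had 1 read in H71 and 9 in H76 at 37 °C against 135 and 178 at 22 °C, and CYCA1;1, of S phase to mitosis, had 2 and 0 against 71 and 127. CYCB1;3 had 0 and 3 reads against 73 and 118, and CYCB2;2 had 6 and 0 against 66 and 88. CYCB2;4 is the member of this list that met the rule. The summed level of the list was 35.0 to 42.3 CPM in H71 and 36.1 to 49.1 CPM in H76 at 37 °C, against 177 to 226 CPM in H71 and 139 to 197 CPM in H76 at 22 °C, and CYCB2;1 was at 0 in the 6 PIF4-L libraries at 37 °C. This list marks dividing cells, and its part in the fall of the members was not tested.

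The UGT76 glycosyltransferases, with UGT76E5 as a member, changed in both directions. Of 13 in the fit, 6 were called lower and 2 higher in H71, and 7 lower and 2 higher in H76 (medians -1.60 and -1.67). UGT76E4 had 2 reads in H71 and 17 in H76 at 37 °C against 222 and 341 at 22 °C, while UGT76E11 had 296 and 341 against 67 and 97, changes of 2.64 and 2.97. With library totals 9 were called lower and 1 higher in H71, and 11 lower and 1 higher in H76. The early nodulin-like proteins, cell-surface proteins of which 12 were in the fit and none is a member, had 5 called lower and 3 higher in H71, and 6 lower and 3 higher in H76. ENODL13 had 1 and 0 reads at 37 °C against 62 and 65 at 22 °C, ENODL14 had 7 and 8 against 255 and 525, ENODL15 had 5 and 9 against 255 and 563, and ENODL10 had 136 and 138 against 8 and 26. With library totals 9 were called lower and 2 higher in each code. Of the S-domain receptor kinases 4 were in the fit, with 1 called lower in H71, and 2 lower and 1 higher in H76 (3 lower in each code with library totals); ARK1 and ARK2 were at 0 in the 6 PIF4-L libraries at both temperatures.

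Markers of cell types were counted in the same way. The share called lower over all genes tested was 24.3% in H71 and 24.1% in H76. With library totals most genes tested were called lower, 11719 of 19329 in H71 and 10932 in H76, and 1742 and 1831 were called higher. In the stomatal lineage list 2 of 8 were called lower in H71. In H76 none was called by edgeR with TMM scaling or by DESeq2, and 0 had an unadjusted p under 0.05. With library totals 4 of 8 were called lower in H71 and 2 of 8 in H76. In the root hair list edgeR called 2 of 6 lower in H71 and 1 higher in H76, DESeq2 called 4 lower in H71 and 1 lower and 1 higher in H76, and with library totals 4 were called lower in each code. In the phloem and xylem list 2 of 6 were higher in H71, and 2 higher and 1 lower in H76. In the epidermis list 2 of 4 were lower in H71 and 1 in H76, and 4 of 4 in each code with library totals. In the meristem list, with 3 of 6 in the fit, 1 was lower in H71 and 1 higher in H76, and with library totals 2 were lower in H71 and 1 in H76. Lower and higher calls in these lists both depend on the scaling: with library totals none of these marker lists had a gene called higher (edgeR), 1 meristem gene in H76 was higher at an unadjusted p under 0.05, and the phloem and xylem list had 3 called lower in each code.

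Summed levels of the stomatal lineage list were 15.4 to 19.1 CPM in H71 and 9.21 to 24 CPM in H76 at 37 °C, against 38.1 to 45.1 CPM in H71 and 30.8 to 39.4 CPM in H76 at 22 °C. For the epidermis list they were 823 to 921 CPM in H71 and 798 to 920 CPM in H76 at 37 °C, against 1544 to 1885 CPM in H71 and 1595 to 1982 CPM in H76 at 22 °C. The root hair list summed to 12.9 to 30.3 CPM in H71 and 18.4 to 44.4 CPM in H76 at 37 °C, against 48.6 to 73.6 CPM and 40 to 74.1 CPM at 22 °C. The phloem and xylem list summed to 146 to 191 CPM in H71 and 179 to 193 CPM in H76 at 37 °C, against 256 to 305 CPM and 275 to 301 CPM at 22 °C. The meristem list summed to 2.45 to 4.25 CPM in H71 and 3.43 to 6.97 CPM in H76 at 37 °C, against 8.18 to 12.1 CPM and 6.86 to 9.49 CPM at 22 °C. Its stem cell gene WUS was at 0 in the 6 PIF4-L libraries at 22 °C, and had 0 reads in H71 and 6 in H76 at 37 °C. These sums use library totals, on which the median change of all genes was -1.13 (log2) in H71 and -1.02 in H76. With TMM scaling the list medians in H71 and H76 were -0.28 and -0.24 (stomatal lineage), -0.25 and -0.25 (epidermis) and -1.71 and -0.88 (root hair). They were -0.24 and -0.09 (phloem and xylem) and -0.42 and 0.30 (meristem), against -0.14 in each code over all genes. The part of these cell types in the fall of the members was not tested.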

How the data were processed

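The table deposited for the series holds raw counts of reads per gene for 24 libraries; reads were placed on the TAIR10 build per the submitters' processing notes, and the sources used here give neither the aligner nor the use of strand. The 24 columns of length-corrected values beside the counts were not used. Members and gene lists were chosen with earlier results of these data known. CPM was computed as counts over column totals. Heat effects were fitted with edgeR 4.0.16 in R 4.3.3 (filterByExpr, TMM, robust quasi-likelihood F test) over 24 libraries in 8 groups; 19329 of 32328 genes passed the filter, with a common biological coefficient of variation of 24.5%. Totals per library were 3176106 to 14791597 counts. The SE of a log2 change was taken as its size over the square root of the F statistic. The script was tested on simulated data. A group at 0 reads was set to a floor of 3 reads, and ratios of 1 to 3 reads have exact binomial 95% intervals. Both used TMM-scaled library sizes. The codes H71 and H76 are the columns that are neither WT nor pif4. Named genes were the 30 members highest in PIF4-L at 22 °C, members not called or over 6 reads, genes next to the limits, and up to 4 called genes per list. ROPGEF6 falls outside this rule and was named after its values were seen. All 41 members were found in RefSeq's TAIR10.1 annotation by locus name. Alternatives were DESeq2 1.42.0, other scalings and filters, a replicate block, and leaving out libraries.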

Additional observations from a re-analysis of the deposited data

Results flagged for a closer look

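For each member the 6 PIF4-L libraries at one temperature were searched for 1 library far from the other 5, in 75 groups with more than 3 reads; chance marks about 1 group in 20 where values are normally distributed. That rate does not hold for the 37 °C groups, which are mostly at 0: a group with 1 library above 0 is always marked. There were 6 such libraries at 37 °C and 1 at 22 °C. BHLH120 (AT5G51790) had 1.74 CPM in H76 c at 37 °C, from 7 reads, against at most 0.544 CPM in the others. AT3G52561 had 1.23 CPM in H76 a at 37 °C (9 reads), against at most 0.112 CPM. AT3G05155 had 1.72 CPM in H71 b at 37 °C (10 reads), against at most 0.544 CPM. AT2G23680 had 1.89 CPM in H71 b at 37 °C (11 reads), with 0 in the others. AT5G46950 had 0.959 CPM in H76 a at 37 °C (7 reads), against at most 0.336 CPM. AT2G30840 had 1.57 CPM in H71 a at 37 °C (14 reads), against at most 0.218 CPM. At 22 °C, AT4G22730 had 7.09 CPM in H76 a (61 reads), against 3.90 to 4.81 CPM in the others. The causes were not tested.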

How the results depend on the processing

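The number of members follows its limits: 17 genes met a limit of 3 reads, 132 a limit of 12 reads, 167 a limit of 2 CPM, 6 a limit of 8 CPM, and 19 when CPM used TMM-scaled library sizes. Leaving out 1 WT or pif4 library gave 38 to 80 genes, with 66 without the 37 °C library WT c and 68, 80 and 74 without the 37 °C libraries pif4 a, b and c, where the same limit on reads covers fewer libraries. Members called lower numbered 37 in H71 and 39 in H76 with DESeq2, 37 and 37 with no filter on low counts, 32 and 37 with the PIF4-L libraries alone, 40 and 41 with library totals, and 32 to 37 and 31 to 39 when 1 PIF4-L library was left out. With the column letter as a replicate block the counts were 37 and 39. The letters are not tied to replicate numbers. Deviations of libraries with the same letter had a median correlation of 0.042 (-0.089 to 0.468). Those of other letters had a median of -0.022 (-0.448 to 0.42). The ranges overlap, so this check does not settle whether the letters pair the libraries. The block changed 1 member's call, that of DEL1 in H76 (-2.99, adjusted p = 0.0066, edgeR). SUVH5 in H71 reversed with 1 library left out (range -0.72 to 0.48); the cause was not tested. Of the members' log2 values under the alternatives, 1318 kept direction and call, 59 lost and 15 gained the call and 2 reversed. No alternative called a difference between H71 and H76 in heat effect or at 22 °C. At 37 °C, 3 reads over a group is the depth limit.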
